A study of Drosophila melanogaster with 12 samples.

Results

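The 8 genes described here build and guide the dosage compensation complex of Drosophila melanogaster and were chosen by name out of 15261 genes listed at 30 days and 15130 genes listed at 10 days. They are the long noncoding RNAs lncRNA:roX1 and lncRNA:roX2, the 5 MSL protein genes msl-1, msl-2, msl-3, mle and mof, and Clamp, and all 8 were listed and passed the filter on low counts at both ages. Messenger RNA of whole w1118 flies, a laboratory strain that carries a mutation of the white gene in every group, was sequenced in 12 libraries. The groups are males at 30 days, females at 30 days, males at 10 days and females at 10 days, with 3 libraries each from independent experiments and 10 mated flies pooled in each sample. All flies were kept on the same diet with males and females in separate vials.

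Drosophila males carry a single X chromosome and females a pair. In males the MSL complex binds the X chromosome, acetylates histone H4 there and raises the transcription of X-linked genes, so that their output comes near that of females. MSL2 is the subunit that only males make, because in females the protein Sex-lethal binds msl-2 RNA and blocks its splicing and translation. Without MSL2 the complex does not assemble in females, although the other subunits are made in both sexes. The roX RNAs are part of the complex and are known as RNAs of males.

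The library totals ranged from 23097763 to 38990857 counts in males and from 37558056 to 54692004 in females at 30 days. At 10 days they ranged from 38199967 to 48613036 in males and from 51208712 to 62924598 in females. The 8 genes of the Y chromosome that were looked up had counts in males at both ages and 0 counts in all 6 female libraries. Whole flies mix tissues in unequal parts. Photoreceptor, neuron and muscle genes (16) summed to 11329 to 12448 CPM (counts scaled to library size, here with TMM factors, which allow for RNA composition) in males and 1027 to 2150 CPM in females at 30 days, and to 11866 to 12434 CPM in males and 2150 to 2621 CPM in females at 10 days. Ovary and egg genes (11) summed to 59.1 to 71.1 CPM in males and 1714 to 2176 CPM in females at 30 days, and to 54.1 to 139.9 CPM in males and 5162 to 5492 CPM in females at 10 days. These 11 were osk, bcd, grk, nanos, vas, swa, Cp36, Vm26Aa and the yolk protein genes Yp1, Yp2 and Yp3. The tissue that expressed each of them was not measured. In such bulk samples fewer cells of a type and less RNA per cell cannot be told apart, and the part of tissue make-up in the sex differences of the 8 genes was not tested beyond the scaling on those 16 genes given below. The median log2 fold change of males over females was 1.32 over 13013 tested genes at 30 days and 1.06 over 13334 at 10 days, so a gene without a sex difference in CPM already lay below the median gene.

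The roX RNAs showed the largest sex difference among the 8 genes. The gene lncRNA:roX1 (NCBI gene 3772376) lies on the minus strand of the X chromosome at 3857230 to 3862697 of the Release 6 genome, with 5 annotated transcripts. Its level, in CPM per kilobase of exon, was 112, 116 and 99.2 in males and 0.0696, 0.0509 and 0.312 in females at 30 days. At 10 days it was 137, 148 and 135 in males and 0.0843, 0.702 and 1.15 in females. Males and females were far apart at both ages, and the male libraries lay close together while the highest female library had 6.13 times the level of the lowest at 30 days and 13.6 times at 10 days. By edgeR's quasi-likelihood test, with p-values adjusted over all tested genes and a threshold of 0.05, lncRNA:roX1 was higher expressed in males by 9.56 ± 0.74 on the log2 scale (SE of the fit, adjusted p = 2.47e-05) at 30 days and by 7.70 ± 0.90 (SE, adjusted p = 0.000208) at 10 days. The highest female library weighed on both sizes, which were 10.8 without female replicate 3 at 30 days and 8.31 without female replicate 3 at 10 days.

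The gene lncRNA:roX2 (NCBI gene 3772415) lies on the plus strand of the X chromosome at 11579065 to 11580432, and its 1368 bases of exon make it much shorter than lncRNA:roX1. Males had 573, 314 and 490 counts and females 0, 0 and 0 counts at 30 days. At 10 days males had 1310, 777 and 576 counts and females again 0, 0 and 0. In levels this was 11.3, 11.5 and 9.93 CPM per kilobase in the male libraries of 30 days and 25.6, 15.8 and 10.0 in those of 10 days. No count of lncRNA:roX2 was thus found in any of the 6 female libraries, whereas every female library held lncRNA:roX1. With 3 counts per library as the limit that 0 counts allow, the mean male CPM of lncRNA:roX2 was 243 times the mean female limit at 30 days and 460 times at 10 days. The highest male library of 10 days had 2.56 times the level of the lowest. By edgeR lncRNA:roX2 was higher in males at 30 days (adjusted p = 6.14e-05) and at 10 days (adjusted p = 0.000127).

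**Figure D1:**
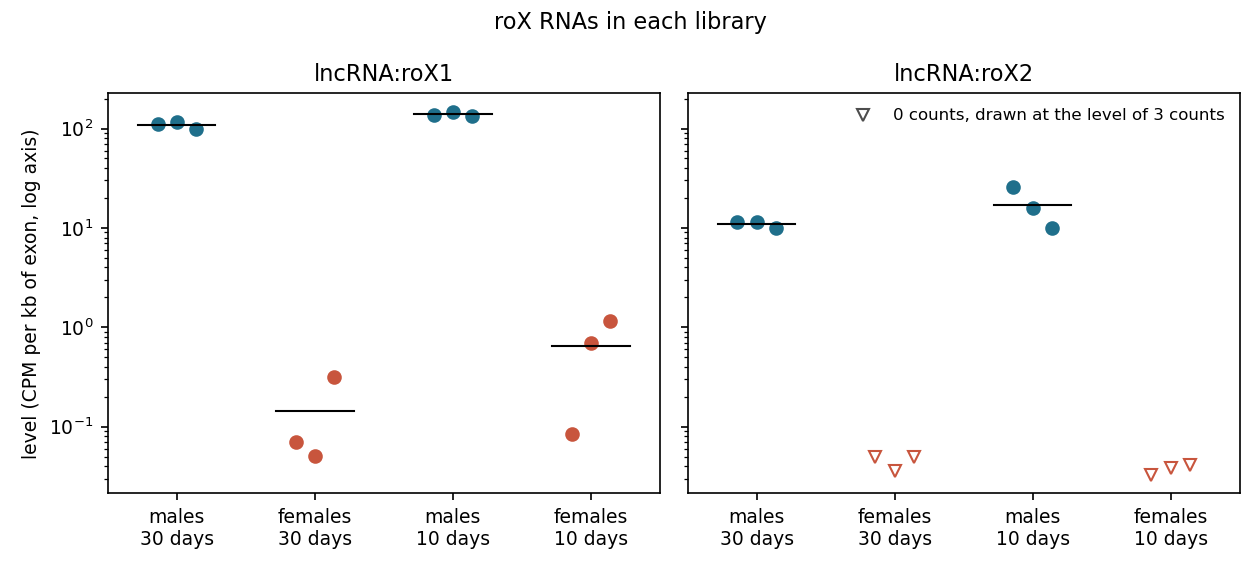
Levels of lncRNA:roX1 (left) and lncRNA:roX2 (right) in CPM per kilobase of exon on a log axis, with 1 point per library and a line at the mean of 3 libraries. Males lie at 99.2 or more for lncRNA:roX1 and at 9.93 or more for lncRNA:roX2, and females reach at most 1.15 for lncRNA:roX1 and have 0 counts of lncRNA:roX2 in all 6 libraries, drawn as open triangles at the level of 3 counts.

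The female counts of lncRNA:roX1 were few but not alike. Females had 17, 17 and 75 counts at 30 days and 31, 222 and 335 counts at 10 days, beside 12667 to 22594 counts in males at 30 days and 27987 to 30946 in males at 10 days. The opposite-strand gene ec, which encodes a ubiquitin protease, shares 392 bases with it, or 7.17% of its exons, and it was not stated whether reads were counted by strand. If reads of ec lay evenly over its exons and were counted without strand, they would give 3.05% to 66.8% of the lncRNA:roX1 level in a female library and at most 0.069% in a male library. That share was 42.0%, 33.2% and 3.05% in the females of 30 days and 66.8%, 3.57% and 4.74% in the females of 10 days. It was largest in the libraries with the fewest lncRNA:roX1 counts and small in the 3 libraries that held more than 31. The share is divided by the lncRNA:roX1 level of the same library, so this order follows in part from the division.

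Marker genes of male tissue were read in the same female libraries. The 5 accessory gland and duct genes found in the tables summed to 0, 0 and 5 counts in the females of 30 days and to 0, 0 and 37 counts in the females of 10 days, beside 88260 to 208110 counts in males. The 8 testis genes summed to 239, 234 and 227 counts in the females of 30 days and to 364, 355 and 492 counts in the females of 10 days, beside 33884 to 77027 counts in males. Of the 8 testis genes only sa had 0 counts in all females of an age, and this held at both ages, while all 8 Y-linked genes had 0 counts in every female library. In single libraries fewer testis genes had counts, namely 5, 4 and 3 in the females of 30 days and 2, 7 and 2 in those of 10 days. The part of male tissue in the female lncRNA:roX1 counts was not tested.

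The balance of the roX RNAs in males varied most among the 10-day libraries. Per 100 counts of lncRNA:roX1, lncRNA:roX2 had 2.48 to 2.54 counts in the male libraries of 30 days and 1.86 to 4.68 in those of 10 days. The levels per kilobase gave lncRNA:roX2 over lncRNA:roX1 ratios of 0.101, 0.0991 and 0.1001 at 30 days and 0.187, 0.107 and 0.0744 at 10 days. The 3 libraries of 30 days were nearly equal and lay inside the range of the 10-day libraries. The log2 ratio at 30 days minus that at 10 days was -0.19 (exact permutation test, two-sided, p = 0.7, adjusted p = 0.7 over 5 ratio tests). Without replicate 1 of the 10-day males, the library with the most lncRNA:roX2, that difference turned to 0.17.

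MSL2 is a RING finger protein and the limiting subunit of the complex. Its gene msl-2 (NCBI gene 33565) lies on the minus strand of arm 2L at 3462218 to 3466112. The msl-2 level was 7.51, 5.82 and 10.2 CPM per kilobase in males and 0.658, 1.36 and 1.39 in females at 30 days. At 10 days it was 6.28, 7.05 and 5.79 in males and 0.809, 1.29 and 1.44 in females. Male and female libraries did not overlap at either age, and msl-2 RNA was present in every female library. With TMM factors msl-2 was higher expressed in males by 2.74 ± 0.43 on the log2 scale (SE, adjusted p = 0.000634) at 30 days, or 6.70-fold, and by 2.35 ± 0.30 (SE, adjusted p = 0.000315) at 10 days, or 5.12-fold.

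The direction of msl-2 depended on what the libraries were scaled to. With factors from the 16 photoreceptor, neuron and muscle genes its log2 fold change was -0.75 at 30 days (adjusted p = 0.267) and -0.07 at 10 days (adjusted p = 0.866), so neither call was kept. This scaling moved the median of all tested genes by -3.27 on the log2 scale at 30 days and by -2.41 at 10 days. Relative to the median of all tested genes, msl-2 stood 1.43 higher at 30 days and 1.30 higher at 10 days.

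MSL1 is the scaffold on which the complex is built and MSL3 is a chromodomain protein that binds methylated histone H3, and both genes had lower levels in males. The gene msl-1 (NCBI gene 35121) lies on the minus strand of arm 2L at 18683720 to 18688800. Its level was 3.53, 4.05 and 6.30 CPM per kilobase in males and 45.9, 62.4 and 63.6 in females at 30 days, and 3.31, 3.83 and 4.63 in males and 43.3, 36.3 and 45.1 in females at 10 days. All males lay far below all females. Among the protein genes msl-1 differed most, with a log2 fold change of -3.67 ± 0.29 (SE, adjusted p = 2.62e-05) at 30 days and -3.48 ± 0.15 (SE, adjusted p = 6.35e-06) at 10 days, which is 12.8-fold and 11.1-fold lower in males.

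The gene msl-3 (NCBI gene 38779) lies on the minus strand of arm 3L at 7123213 to 7125533. Its level was 4.49, 9.95 and 7.61 CPM per kilobase in males and 45.7, 63.1 and 48.6 in females at 30 days. At 10 days it was 10.7, 10.2 and 13.1 in males and 39.4, 38.5 and 33.5 in females. Males were lower and did not overlap with females at either age. The log2 fold change was -2.89 ± 0.33 (SE, adjusted p = 0.000136) at 30 days and -1.80 ± 0.18 (SE, adjusted p = 9.61e-05) at 10 days. It shares 85 bases, or 4.31% of its exons, with the opposite-strand gene form3, which by the same even-spread reckoning would give 2.81% to 10.3% of the msl-3 level in a male library and at most 0.19% in a female library.

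MOF is the histone acetyltransferase of the complex and is also a subunit of the NSL complex, which works in both sexes. The gene mof (NCBI gene 31518) is the only protein gene of the set on the X chromosome, on the minus strand at 5873840 to 5876853. Its level was 4.78, 4.19 and 5.92 CPM per kilobase in males and 13.2, 17.9 and 15.4 in females at 30 days, and 3.74, 4.12 and 5.13 in males and 14.9, 11.7 and 16.2 in females at 10 days. All males were lower than all females. The log2 fold change was -1.69 ± 0.26 (SE, adjusted p = 0.000581) at 30 days and -1.79 ± 0.19 (SE, adjusted p = 0.000136) at 10 days, about as large as that of msl-3 at 10 days.

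MLE is an RNA helicase that unwinds the roX RNAs, and its gene was the one with nearly equal levels in the sexes. The gene mle (NCBI gene 35523) lies on the minus strand of arm 2R at 5974857 to 5980778. Its level was 13.7, 12.5 and 14.1 CPM per kilobase in males and 9.22, 11.3 and 10.5 in females at 30 days, and 12.02, 11.8 and 13.2 in males and 10.6, 9.38 and 11.95 in females at 10 days. Males and females overlapped at 10 days and did not at 30 days. The log2 fold change was 0.33 ± 0.19 (SE, adjusted p = 0.141) at 30 days and 0.15 ± 0.13 (SE, adjusted p = 0.317) at 10 days, so mle passed the threshold at neither age. The answer for mle turned on the scaling. It was called higher in males with RLE factors, which are set on the median gene, at 30 days (0.52, adjusted p = 0.0240) and at 10 days (0.35, adjusted p = 0.0478), and called lower in males with the photoreceptor, neuron and muscle factors at 30 days (-3.12, adjusted p = 0.000271) and at 10 days (-2.29, adjusted p = 2.96e-05). With total counts the 10-day value was -0.02 (adjusted p = 0.883).

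CLAMP is a zinc finger protein that binds GA repeats and helps to bring the complex to the X chromosome, and it is made in both sexes. The gene Clamp (NCBI gene 35445) lies on the minus strand of arm 2L at 22165720 to 22169143. Its level was 21.4, 19.5 and 19.3 CPM per kilobase in males and 45.8, 66.2 and 56.9 in females at 30 days. At 10 days it was 27.9, 25.6 and 28.3 in males and 63.3, 54.5 and 67.2 in females. Males were lower without overlap, with a log2 fold change of -1.54 ± 0.19 (SE, adjusted p = 0.000217) at 30 days and -1.25 ± 0.10 (SE, adjusted p = 3.85e-05) at 10 days. The opposite-strand gene CG42748 shares 502 bases, or 17.3% of the Clamp exons, and by the even-spread reckoning would give 4.49% to 7.73% of the Clamp level in a male library and 2.01% to 2.56% in a female library.

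**Figure D2:**
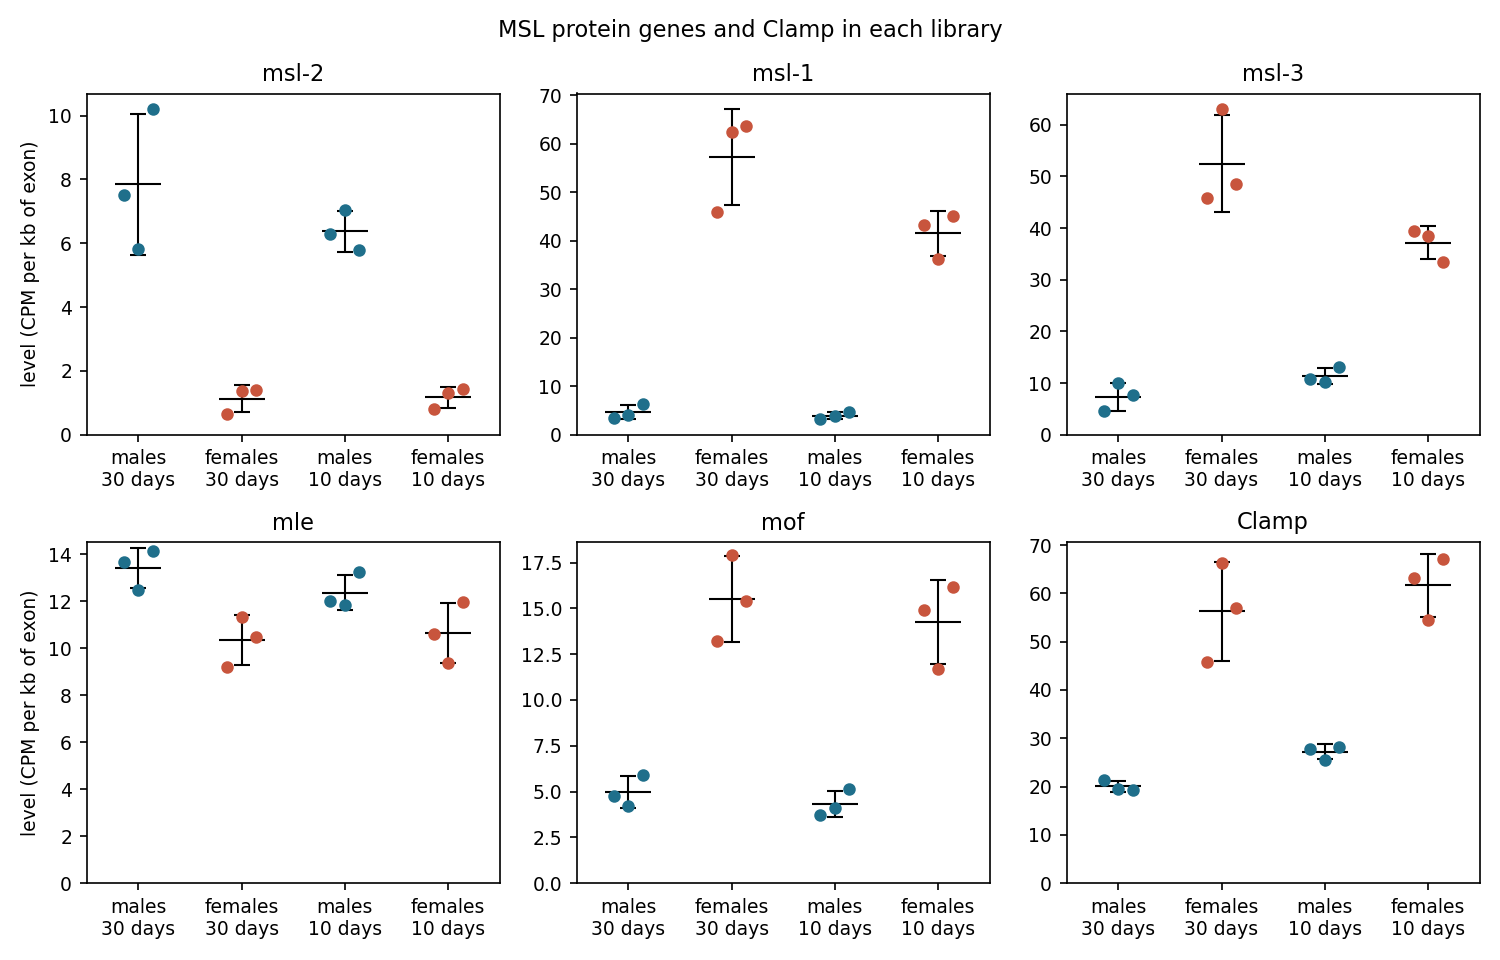
Levels of msl-2, msl-1, msl-3, mle, mof and Clamp in CPM per kilobase of exon on axes that start at 0, with 1 point per library and bars for the mean and SD of 3 libraries. Only msl-2 has all males above all females at both ages (5.79 or more against 1.44 or less), msl-1, msl-3, mof and Clamp have all males below all females, and mle overlaps at 10 days.

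Of the 8 genes, 3 were higher in males at 30 days, namely both roX RNAs and msl-2, beside 48.4% of all tested genes, and 4 were lower in males, namely msl-1, msl-3, mof and Clamp, beside 30.4% of all tested genes. At 10 days the same 3 genes were higher, beside 46.8% of all tested genes, and the same 4 were lower, beside 31.6%. The ovary and egg genes were lower in males too, with 9 of 10 tested genes called at 30 days and 10 of 11 at 10 days, and the photoreceptor, neuron and muscle genes were higher, with 16 of 16 called at both ages, and their part in the calls of the 8 genes was not tested. Testis genes (8 of 8), accessory gland and duct genes (5 of 5) and all tested Y-linked genes were higher in males at both ages. Shares of 3 and 4 of 8 lie near those of all genes, so the counts by themselves set nothing apart, and the sizes are given instead. Relative to the median of all tested genes lncRNA:roX1 stood 8.24 higher on the log2 scale at 30 days and 6.64 higher at 10 days. The values of the other genes relative to that median were -0.99 and -0.91 for mle, -2.85 and -2.30 for Clamp, -3.01 and -2.84 for mof, -4.20 and -2.85 for msl-3, and -4.99 and -4.53 for msl-1, each at 30 days first and 10 days second.

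The split of all calls moved with the scaling as well. At 30 days 6299 genes were higher and 3950 lower in males with TMM factors, and 2790 were higher and 6866 lower with the photoreceptor, neuron and muscle factors. At 10 days the counts were 6238 higher and 4216 lower with TMM factors, and 3199 higher and 6769 lower with those factors. Both roX RNAs were called higher in males under either scaling, and msl-1, msl-3, mof and Clamp were called lower in males under either scaling. With the photoreceptor, neuron and muscle factors the log2 fold change was -7.12 at 30 days and -5.91 at 10 days for msl-1, -6.36 and -4.20 for msl-3, -5.17 and -4.23 for mof, and -5.01 and -3.68 for Clamp. No factor changes the distance between a pair of members within a library, so lncRNA:roX1, msl-2 and mle kept their order above Clamp, mof, msl-3 and msl-1 in each of the 4 scalings drawn.

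**Figure D3:**
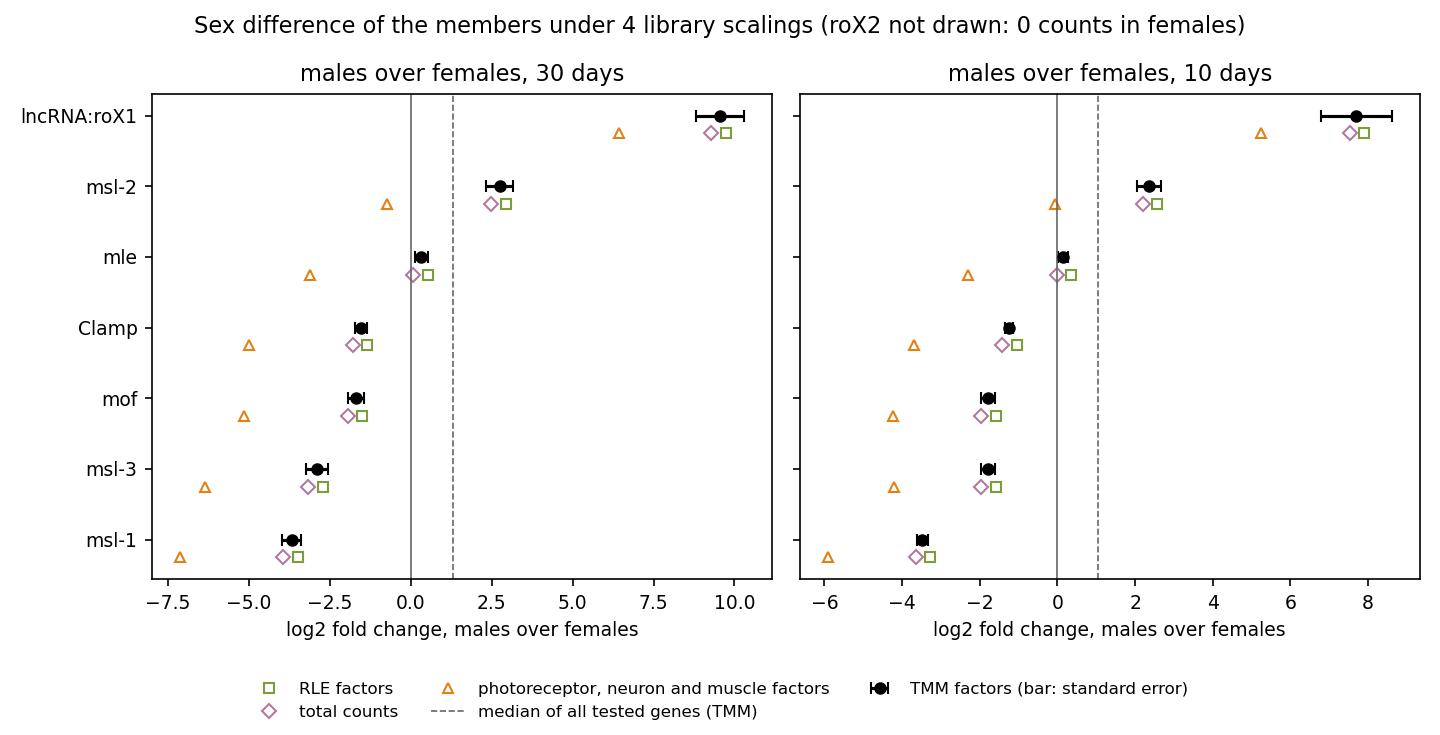
Log2 fold change of males over females at 30 days (left) and at 10 days (right) for 7 of the genes under TMM factors (black, with standard error), RLE factors, total counts and the factors of the 16 photoreceptor, neuron and muscle genes. The last of these moves msl-2 to -0.75 at 30 days and -0.07 at 10 days and mle to -3.12 and -2.29, while lncRNA:roX1 stays at 6.43 and 5.25.

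The share of msl-2 among the MSL protein genes was also compared within libraries, where no scaling enters. Of the genes it was set against, msl-1, msl-3 and mof were lower in males. The ratio joins the sex difference of msl-2 with theirs, so it does not give the direction of msl-2 itself. The level of msl-2 over the geometric mean of msl-1, msl-3, mle and mof was 1.32, 0.858 and 1.28 in males and 0.0292, 0.0453 and 0.0522 in females at 30 days. At 10 days it was 0.995, 1.07 and 0.723 in males and 0.0355, 0.0653 and 0.0618 in females. In males the msl-2 level per kilobase was thus near that geometric mean, and in every female library it was far below it. Singly the subunit genes differed. In males of 10 days the mean msl-2 level of 6.37 lay below mle (12.4) and msl-3 (11.3) and above mof (4.33) and msl-1 (3.92). The ratio was 27.6-fold higher in males at 30 days (log2 difference 4.79 ± 0.56, SD of the difference, n = 3 and 3, exact permutation test, two-sided, p = 0.1) and 17.5-fold higher at 10 days (log2 difference 4.13 ± 0.57, exact permutation p = 0.1). With 3 libraries against 3 this test cannot go below 0.1, and adjusted over the 5 ratio tests these p-values were 0.125.

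The same ratio for Clamp differed far less. Clamp over the geometric mean of msl-1, msl-3, mle and mof was 3.77, 2.88 and 2.43 in males and 2.04, 2.21 and 2.14 in females at 30 days. At 10 days it was 4.41, 3.87 and 3.53 in males and 2.78, 2.75 and 2.89 in females. Males were higher in all libraries at both ages, by 1.40-fold at 30 days (log2 difference 0.48 ± 0.33, SD of the difference, exact permutation p = 0.1) and by 1.40-fold at 10 days (log2 difference 0.48 ± 0.17, exact permutation p = 0.1), with adjusted p = 0.125 for both.

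**Figure D4:**
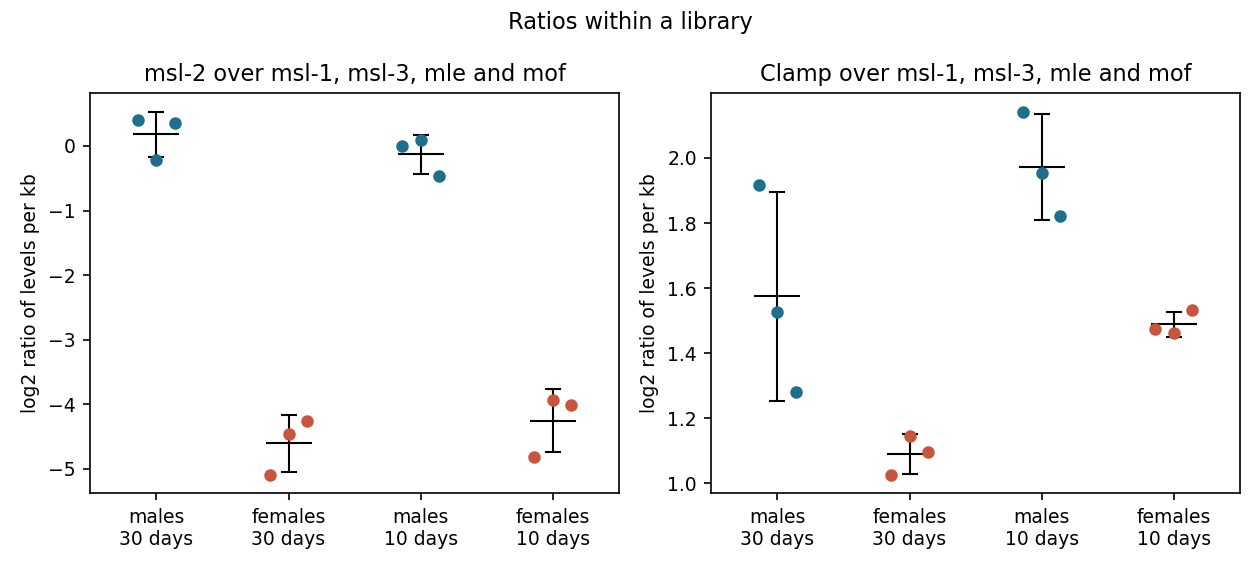
Log2 of the level of msl-2 (left) and of Clamp (right) over the geometric mean of msl-1, msl-3, mle and mof in the same library, with 1 point per library and bars for the mean and SD. For msl-2 males lie at -0.47 or higher and females at -3.94 or lower, while for Clamp the sexes differ by 0.48 at each age.

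The order of the levels per kilobase differed between the sexes. In males of 30 days lncRNA:roX1 came first at 109 ± 8.77 (SD, n = 3), followed by Clamp at 20.1 ± 1.16, mle at 13.4 ± 0.85 and lncRNA:roX2 at 10.9 ± 0.86. Below them msl-2, msl-3, mof and msl-1 followed, each overlapping the next, and lncRNA:roX2 overlapped msl-2. In females of 30 days msl-1 at 57.3 ± 9.87, Clamp at 56.3 ± 10.2 and msl-3 at 52.5 ± 9.33 led and overlapped each other, mof at 15.5 ± 2.34 and mle at 10.3 ± 1.06 came next, and msl-2 at 1.13 ± 0.41 and lncRNA:roX1 at 0.144 ± 0.146 were near the end. In males of 10 days the order was lncRNA:roX1, Clamp, lncRNA:roX2, mle, msl-3, msl-2, mof and msl-1. There Clamp overlapped lncRNA:roX2, lncRNA:roX2 overlapped mle, mle overlapped msl-3 and mof overlapped msl-1, while msl-3 did not overlap msl-2. In females of 10 days it was Clamp, msl-1, msl-3, mof, mle, msl-2 and lncRNA:roX1, with overlaps between msl-1 and msl-3, between mof and mle and between msl-2 and lncRNA:roX1. The gene msl-1 was thus last of the 8 in males at both ages and first in females at 30 days and next to Clamp at the top at 10 days.

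No member with counts passed the threshold of edgeR between 30 and 10 days in either sex. In males 0 of 8 genes were called by edgeR, beside 0.446% of all tested genes, with 2 of the 8 at an unadjusted p below 0.05, beside 1690 of 14112 tested genes, 1 called by DESeq2 and 0 called by limma-voom. In females lncRNA:roX2 had no count at either age and thus no value, and of the other 7 genes 0 were called by edgeR, beside 0.326% of all tested genes, with 1 at an unadjusted p below 0.05, beside 1915 of 14112, and 0 called by DESeq2 or limma-voom. The male levels of Clamp were lower at 30 days without overlap, at 20.1 ± 1.16 and 27.2 ± 1.48 CPM per kilobase at 30 and 10 days (log2 fold change -0.44 ± 0.15 SE, unadjusted p = 0.0121, adjusted p = 0.248), and this was the gene that DESeq2 called (adjusted p = 0.0484). The male levels of msl-3 were likewise lower without overlap, at 7.35 ± 2.74 and 11.3 ± 1.55 (log2 fold change -0.63 ± 0.26 SE, unadjusted p = 0.0328, adjusted p = 0.360). The share of all tested genes without overlap between the ages was not counted. With so few libraries per group unchanged genes can also part, so the lack of overlap adds nothing to these tests.

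Male levels of lncRNA:roX1 averaged 109 ± 8.77 at 30 days and 139.7 ± 7.02 at 10 days and did not overlap, yet with the spread shared by all 4 groups the log2 fold change of -0.36 had a standard error of 0.66 (adjusted p = 0.913). The other male values were -0.65 ± 0.43 for lncRNA:roX2, 0.30 ± 0.35 for msl-2, 0.24 ± 0.22 for msl-1, 0.20 ± 0.22 for mof and 0.12 ± 0.15 for mle (log2 fold change ± SE). In females the gene with the unadjusted p below 0.05 was lncRNA:roX1, with a log2 fold change of -2.19 ± 0.78 (SE, unadjusted p = 0.0161, adjusted p = 0.290) and overlapping libraries. The female levels of msl-1 were 57.3 ± 9.87 at 30 days and 41.6 ± 4.67 at 10 days (log2 fold change 0.46 ± 0.22 SE, adjusted p = 0.391) and those of msl-3 were 52.5 ± 9.33 and 37.1 ± 3.17 (0.50 ± 0.25 SE, adjusted p = 0.433), both without overlap. Here too the share of all tested genes without overlap between the ages was not counted. The ovary and egg genes summed to less in the females of 30 days than in those of 10 days, as given above. Singly, 0 of these 11 genes were called with age in females by edgeR, beside 0.326% of all tested genes. Their log2 fold changes ran from -7.41 to 0.30, with a median of -0.46. The part of tissue make-up in the female values was not tested.

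A sex difference that changes with age was tested directly, as the difference of males over females at 30 days minus that at 10 days. It has no value for lncRNA:roX2, which had 0 counts in all females, and was called by edgeR for 0 of the other 7 genes, beside 0.0142% of all tested genes, and by DESeq2 and limma-voom for 0. The only member at an unadjusted p below 0.05, beside 1838 of 14112 tested genes, was msl-3, at -1.12 ± 0.36 on the log2 scale (SE, unadjusted p = 0.00956, adjusted p = 0.230). The value of lncRNA:roX1 was 1.83 ± 1.02 (SE, adjusted p = 0.470) and that of msl-2 was 0.36 ± 0.49 (SE, adjusted p = 0.896).

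MOF also works in the NSL complex, which acts at the promoters of active genes in both sexes. All 6 of its genes looked up were lower in males at 30 days and at 10 days, as mof itself was, beside the 30.4% and 31.6% of all tested genes that were lower. The median log2 fold change was -1.37 at 30 days and -1.13 at 10 days. The gene wds, whose WD40 protein is shared with other chromatin complexes, had the largest fall of the list at -3.02 ± 0.27 (SE, adjusted p = 4.24e-05) at 30 days and -2.68 ± 0.17 (SE, adjusted p = 1.49e-05) at 10 days. The gene Rcd5 had the smallest change at 30 days, at -0.77 ± 0.16 (SE, adjusted p = 0.00308).

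Of 4 genes whose proteins act on msl-2 RNA, 3 were lower in males at each age, beside 30.4% of all tested genes at 30 days and 31.6% at 10 days, with a median log2 fold change of -0.82 at 30 days and -0.997 at 10 days. Sxl, which encodes Sex-lethal and is also transcribed in males, was lower in males, at -0.57 ± 0.22 (SE, adjusted p = 0.0409) at 30 days and at -0.73 ± 0.10 (SE, adjusted p = 0.000377) at 10 days. Unr, the cofactor of Sex-lethal in blocking the translation of msl-2, was at -1.47 ± 0.20 (SE, adjusted p = 0.000314) and -1.73 ± 0.12 (SE, adjusted p = 2.18e-05). The splicing regulator Hrb27C was lower at both ages too, while how, which acts with Sex-lethal on the msl-2 intron, was at 0.14 (adjusted p = 0.586) and -0.12 (adjusted p = 0.434) and passed at neither age. With RLE factors, upper quartile factors, DESeq2 or the replicate block, 2 of the 4 were lower in males at 30 days in place of 3, Sxl being the one lost (adjusted p = 0.0896 with the block), and Sxl was called at that age in 1 of 6 fits with 1 library left out. With the photoreceptor, neuron and muscle factors all 4 were lower at both ages, how included.

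Of 10 genes for chromatin proteins that are tied to the male X chromosome, 9 were lower in males at 30 days, beside 30.4% of all tested genes, and 8 at 10 days, beside 31.6%, with a median log2 fold change of -2.34 at 30 days and -2.17 at 10 days. The largest was that of Su(var)3-7, a heterochromatin protein, at -4.17 ± 0.34 (SE, adjusted p = 3.12e-05) and -3.59 ± 0.12 (SE, adjusted p = 4.11e-06). The topoisomerase gene Top2 was at -3.95 ± 0.26 (SE) and -3.34 ± 0.15 (SE). JIL-1, a histone H3 kinase enriched on the male X chromosome, was lower in males at 30 days (-0.77 ± 0.25 SE, adjusted p = 0.0219) and higher at 10 days (0.26 ± 0.10 SE, adjusted p = 0.0466). The change between these JIL-1 values was -1.05 ± 0.28 (SE, unadjusted p = 0.00303) and did not pass the threshold of edgeR over all genes (adjusted p = 0.168), while DESeq2 called it (adjusted p = 0.0203), as did edgeR without 30-day female replicate 1 (adjusted p = 0.0423). Neither call of JIL-1 between the sexes was stable. The 30-day call was lost with RLE factors, upper quartile factors and in 4 of 6 fits with 1 library left out, and the 10-day call with total counts, without a filter, with a minimum mean count of 10, with the replicate block, with all 12 libraries in 1 fit and in 5 of 6 fits with 1 library left out. With the photoreceptor, neuron and muscle factors all 10 genes were lower in males at both ages, JIL-1 and Trl included. Trl, which encodes the GAGA factor, another protein that binds GA repeats, was at 0.56 (adjusted p = 0.158) and 0.60 (adjusted p = 0.0539) and passed at neither age. Under other settings Trl was called higher at 10 days with RLE factors, upper quartile factors, DESeq2, all 12 libraries in 1 fit and in 2 of 6 fits with 1 library left out, and at 30 days with upper quartile factors (0.89, adjusted p = 0.0427). None of the 20 genes of these lists was called with age by edgeR in either sex.

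The X chromosome, on which the complex acts, had a lower median than the autosomes in the same fits. The median log2 fold change of tested X-linked genes stood at -1.12 relative to that of all autosomal genes at 30 days (2063 and 10806 genes) and at -1.15 at 10 days (2104 and 11074 genes). The medians of single autosomal arms ran from 1.13 to 1.99 at 30 days and from 0.999 to 1.72 at 10 days, and those of X were 0.39 and 0.14. In single libraries the median log2 CPM of X-linked genes minus that of autosomal genes was 0.0022, 0.015 and 0.019 in males and 1.23, 1.83 and 1.33 in females at 30 days, and it was -0.034, 0.0053 and 0.066 in males and 1.48, 1.29 and 1.49 in females at 10 days. These medians are a description without a test, since genes are not replicates, and they hold every gene that passed the filter, those of ovary and testis included.

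Genes most like each member were sought by the root mean square difference of centred log2 CPM over the 12 libraries among 14111 other genes. For lncRNA:roX1 these were CG4681 (difference 0.39), CG14589 (0.42) and CG9624 (0.43), all autosomal genes with 1050 counts or more in every male library and 40 or fewer in every female library. For lncRNA:roX2 they were the copper transporter gene Ctr1C (0.21), CG32413 (0.23) and CG42536 (0.23), each with 0 counts in all 6 female libraries. The roX RNAs differed from each other by 1.22, so that lncRNA:roX2 ranked 419 among the genes nearest to lncRNA:roX1. Where a gene had 0 counts, as lncRNA:roX2 did in all 6 female libraries, its log2 CPM came from the prior count of 2 alone. Both the difference and the rank rest partly on that floor. For msl-2 the nearest were bchs (0.30), ey, which encodes a transcription factor of eye development (0.31), and gt (0.33). Within the 8 genes the closest pair was mof and Clamp (0.34), followed by msl-3 and mof (0.56).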

How the data were processed

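Whole flies were sequenced as poly(A) libraries with 150 bp paired-end reads in 4 groups of sex and age, given by the sample titles, with 3 independent experiments each. The authors deposited whole-number counts per NCBI gene for each library, without normalization. The aligner, the counting tool, its strand setting and the annotation are not given in the sources used here. The 16 other columns of values in the count tables (the authors' normalised values and group means) and the short tables of FPKM values and p-values were not used. The 8 members and the gene lists were chosen with earlier results of these data known.

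Symbols and coordinates came from the gene numbers (15618 of 15631 matched the RefSeq gene table, Release 6 genome), and exon lengths from BDGP 6.54 (Ensembl 115). The lists were 6 NSL genes, 4 regulators of msl-2 RNA, 10 chromatin genes and markers of ovary, testis, accessory gland, the Y chromosome and of photoreceptors, neurons and muscle. The genes given by name are the 8 members, genes of these lists called at 1 or both ages, and the 3 genes most like lncRNA:roX1, lncRNA:roX2 and msl-2, and how, Trl and the overlapping genes were named after their values were seen.

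Males and females of each age were compared by edgeR 4.0.16 (quasi-likelihood F test, TMM factors, filterByExpr with a minimum of 10 counts and 15 in total, Benjamini-Hochberg adjustment over all tested genes, threshold 0.05) in R 4.3.3. A fit of all 12 libraries in 4 groups gave the age differences and the test of the difference between the sex differences. Standard errors were derived from the fold change and the F statistic. Levels are CPM with TMM factors of the 12 libraries, per kilobase of merged exons. Limits from 0 counts (3 counts per library) cover counting error only, whereas the printed SE and SD also hold the spread between libraries. Ratios within a library were compared with exact permutation tests (scipy 1.17.1). Likeness used log2 CPM with a prior count of 2. The fits were also run on simulated data in which few genes changed. That run does not check the library factors where most genes differ, as between the sexes. The alternatives changed the library factors (RLE, upper quartile, total counts, or the 16 photoreceptor, neuron and muscle genes), the filter (none, or a mean count of 10) or the tool (DESeq2 1.42.0, limma-voom 3.58.1), or used a replicate block, all 12 libraries in 1 fit, the longest transcript as length, and each library left out in turn. Tables and plots came from Python 3.11.15, pandas 2.3.3, numpy 2.4.6 and matplotlib 3.10.9.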

Additional observations from a re-analysis of the deposited data

How the results depend on the processing

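Of the 128 values of the 8 genes between the sexes under other settings at each age, 122 kept their direction and call at 30 days and 122 at 10 days. The exceptions were those of msl-2 and mle. With the photoreceptor, neuron and muscle factors msl-2 was at -0.75 at 30 days and -0.066 at 10 days and mle at -3.12 and -2.29, and with total counts mle was at -0.022 at 10 days. The other exceptions were calls of mle gained with RLE factors, upper quartile factors and DESeq2 at both ages, and with all 12 libraries in 1 fit at 30 days. The cause was not tested. Leaving out 1 library kept 7 of 8 genes called at either age, as did the absence of a filter and a minimum mean count of 10. The longest transcript as length changed the levels of lncRNA:roX1 and mle only, and no ratio difference.

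Calls with age were few and unstable over all genes. In males 1 member (Clamp) was called by DESeq2. Over all genes, 63 were called with age in males by edgeR, 572 by DESeq2, 1245 by limma-voom, 0 with the photoreceptor, neuron and muscle factors and from 0 to 89 with 1 library left out. In females 46 were called by edgeR, 615 by DESeq2, 91 by limma-voom, 20 with total counts, 11 with those factors and from 7 to 257 with 1 library left out. A change of the sex difference with age was called for 2 genes by edgeR, 541 by DESeq2, 83 by limma-voom, 1 with those factors and from 0 to 91 with 1 library left out. None of the 8 members was called with age by edgeR in any of these.

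Directions of uncalled age values also turned. In females msl-2 (-0.056) was at 0.041 with total counts, 0.97 with the photoreceptor, neuron and muscle factors, 0.056 without 10-day female replicate 2, 0.016 without 10-day female replicate 3 and 0.20 without 30-day female replicate 1, in a range from -0.31 to 0.20 over the libraries left out. In females mle (-0.040) was at 0.053 with total counts, 0.94 with those factors and 0.029 without 30-day female replicate 1 (range -0.145 to 0.029), Clamp (-0.13) was at 0.89 with those factors, and mof (0.12) was at -0.025 without 30-day female replicate 2 (range -0.025 to 0.22). In males msl-1 (0.24) was at -0.049 without 30-day male replicate 3 (range -0.049 to 0.40). For the change of the sex difference with age, those factors gave -0.68 for msl-2, -0.82 for mle and -0.93 for mof, and mof (0.075) was at -0.018 without 10-day male replicate 1 and -0.069 without 30-day male replicate 3 (range -0.069 to 0.29). In males the log2 ratio of lncRNA:roX2 to lncRNA:roX1 ranged from -0.50 to 0.17 with 1 library left out. The median of X-linked genes minus that of autosomal genes ranged from -1.38 to -1.03 at 30 days and from -1.28 to -1.09 at 10 days.

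It is not stated whether equal replicate numbers mark the same experiment. Deviations of males and females with the same number correlated at 0.0449 or less, which cannot tell whether they shared an experiment. The replicate block is therefore given as an alternative. With the replicate block 7 of 8 genes were called at both ages and 0 with age. Over all genes 0 were called with age in males, 3 in females and 0 for a change of the sex difference with age. Between the sexes 9095 genes were called at 30 days and 9313 at 10 days with the block, against 10249 and 10454 without it.

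Depth limits lncRNA:roX2 in females, where 0 counts set only an upper limit, and lncRNA:roX1 in females, where 4 of 6 libraries held 75 counts or fewer.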
